A study of Homo sapiens with 66 samples.

Results

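Binding of the hypoxia-inducible factor subunit HIF-2α was compared between the renal carcinoma line RCC4 and the renal tubular line HKC8 at the level of individual sites. A site was taken as the merged interval of overlapping peaks called in both replicates of a line. RCC4 had 1211 such sites and wild-type (WT) HKC8 had 3805. Together these merged into 4310 regions, out of 50316 regions covered by any peak in the 50 chromatin immunoprecipitation (ChIP-seq) peak lists of the series. Of the RCC4 sites, 702 overlapped a both-replicate HKC8 site and were called common, and 365 overlapped no HKC8 WT HIF-2α peak at all and were called RCC4-only. The other 144 overlapped an HKC8 WT HIF-2α peak but no both-replicate HKC8 site. Counted from the other side, 704 HKC8 sites were common, 2489 were HKC8-only and 612 overlapped an RCC4 peak but no both-replicate RCC4 site.

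The 4 libraries compared were precipitated with the same antibody to HIF-2α, PM9. RCC4 cells were grown in normoxia. They lack functional VHL, the ubiquitin ligase subunit that marks HIF-α for destruction, and therefore hold HIF-2α in the presence of oxygen. HKC8 cells with WT HIF genes were kept in 0.5% oxygen for 16 h, as the parental arm of an experiment that also had a HIF-1α knockout (KO) and a HIF-2α KO clone. Each line had 2 replicates from separate ChIP experiments. Cell line therefore cannot be told apart from oxygen level, VHL status or experiment, and RCC4 stands for VHL-defective renal carcinoma as a single line. Peak lists hold no expression values, so neither line could be checked against marker genes.

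HIF-2α dimerises with HIF-1β, and the dimer contacts DNA at the hypoxia response element (HRE), whose core reads ACGTG or GCGTG. HIF-1α uses the same partner and the same core, but the isoforms occupy partly different places in chromatin, HIF-2α more often far from promoters. HIF-2α is the isoform most closely tied to growth of VHL-defective kidney cancer, and its sites in such cells include enhancers far from the genes they regulate.

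The 101 bases around the HRE core nearest to the centre are shown for some of the best-ranked common, RCC4-only and HKC8-only sites that hold a core, and for sites at genes of the lists described further on, because they show the letters that the 3 classes share. All are from GRCh37, plus strand, written 5′ to 3′. Capitals mark the core on either strand (CACGT and CACGC are its reverse complements, and CACGTG holds it on both strands) and, in the SCAF11 sequence, the AP-1 motif TGACTCA. The common sites lie near ARRDC3 (chr5:90576830-90576930), LDHA (chr11:18415989-18416089), VEGFA (chr6:43737389-43737489) and EGLN3 (chr14:34407648-34407748).
ARRDC3: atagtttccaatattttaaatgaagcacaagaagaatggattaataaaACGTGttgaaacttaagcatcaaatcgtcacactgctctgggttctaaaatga
LDHA: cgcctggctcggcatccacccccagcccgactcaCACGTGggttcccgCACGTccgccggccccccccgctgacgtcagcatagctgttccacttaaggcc
VEGFA: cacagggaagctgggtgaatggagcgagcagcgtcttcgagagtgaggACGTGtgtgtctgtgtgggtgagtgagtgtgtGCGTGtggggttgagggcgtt
EGLN3: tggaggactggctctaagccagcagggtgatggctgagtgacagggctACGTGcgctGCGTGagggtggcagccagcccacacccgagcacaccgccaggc

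The RCC4-only sites lie near IRS2 (chr13:110492857-110492957), HS1BP3 (chr2:20795512-20795612), SCAF11 (chr12:46495452-46495552), BHLHE41 (chr12:26278628-26278728) and HIF3A (chr19:46774848-46774948).
IRS2: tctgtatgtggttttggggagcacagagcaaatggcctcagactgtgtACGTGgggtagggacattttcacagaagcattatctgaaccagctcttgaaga
HS1BP3: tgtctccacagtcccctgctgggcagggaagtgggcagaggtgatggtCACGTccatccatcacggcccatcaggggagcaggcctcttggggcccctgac
SCAF11: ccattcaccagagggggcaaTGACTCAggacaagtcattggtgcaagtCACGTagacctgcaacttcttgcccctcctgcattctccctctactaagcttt
BHLHE41: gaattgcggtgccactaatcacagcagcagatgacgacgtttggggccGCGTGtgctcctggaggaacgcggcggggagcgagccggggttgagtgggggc
HIF3A: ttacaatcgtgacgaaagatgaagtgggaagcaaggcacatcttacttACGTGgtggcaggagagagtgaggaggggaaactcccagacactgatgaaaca

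The HKC8-only sites lie near SLC45A1 (chr1:8272133-8272233), EFNA1 (chr1:155098681-155098781) and ITPR1 (chr3:4788306-4788406). EFNA1 and ITPR1, like LDHA among the common sites, carry the palindrome CACGTG.
SLC45A1: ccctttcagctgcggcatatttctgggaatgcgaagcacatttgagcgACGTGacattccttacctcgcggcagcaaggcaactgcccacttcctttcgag
EFNA1: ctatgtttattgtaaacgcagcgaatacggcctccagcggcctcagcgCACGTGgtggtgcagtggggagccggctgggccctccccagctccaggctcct
ITPR1: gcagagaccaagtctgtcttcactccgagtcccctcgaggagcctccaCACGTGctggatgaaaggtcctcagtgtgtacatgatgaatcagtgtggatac

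RCC4 gave 4317 HIF-2α peaks in replicate 1 and 2990 in replicate 2, and HKC8 WT gave 4537 and 6749. Both HKC8 lists were longer than both RCC4 lists (3654 ± 938 against 5643 ± 1564, SD, n = 2 each; exact permutation test, two-sided, p = 0.333, adjusted p = 0.364). With 2 libraries against 2 the smallest possible p is 0.33, so no comparison of the lines per library could pass a threshold of 0.05. Replicates matched less well in RCC4, where 28.2% and 40.7% of a library's peaks fell in a both-replicate site, than in HKC8, where 85.1% and 57.0% did. Read depth is unknown from these lists, and a site missing from a list may lie just under the caller's lowest score of 50.

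The common class held 58.0% of the RCC4 sites (95% Clopper-Pearson interval 55.1% to 60.8%) but only 18.5% of the HKC8 sites (17.3% to 19.8%). RCC4-only sites were 30.1% of the RCC4 total (27.6% to 32.8%) and HKC8-only sites 65.4% of the HKC8 total (63.9% to 66.9%). These intervals, like those below, cover counting error only. The RCC4 sites in between had median scores of 181 and 114 in RCC4 and of 79.6 and 105.3 at their HKC8 peak. When the 4 lists were cut to equal length, HKC8-only sites numbered 1291. With a single library in place of the pair, RCC4-only sites numbered 2016 without RCC4 replicate 1 and 2640 without replicate 2, and HKC8-only sites 5052 without HKC8 replicate 1.

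Stronger sites were shared more often. Sites were ranked by the score that the peak caller gave, as a percentile within each list, averaged over the replicates, and split into 5 bins of equal size. In the strongest bin of RCC4 sites, 73.1% were common and 17.8% RCC4-only, and in the weakest bin 39.5% and 45.7%. In HKC8 the share of common sites was 43.6% in the strongest bin and 4.60% in the weakest, while HKC8-only sites went from 40.5% to 83.3%. The score did not define the classes, but it comes from the same lists, so these shares are a description without a test. HKC8-only sites were numerous at high rank too, with 308 in the strongest bin of HKC8, against 43 RCC4-only sites in the strongest bin of RCC4.

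**Figure D1:**
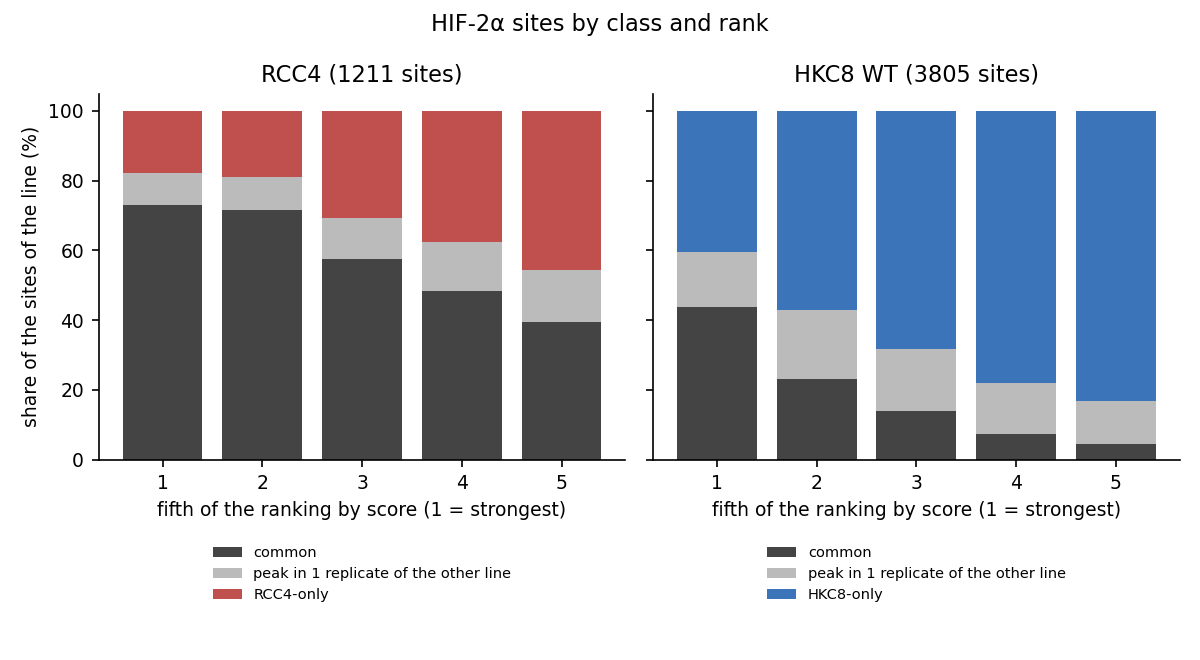
HIF-2α sites of RCC4 (left, 1211 sites) and HKC8 WT (right, 3805 sites) in 5 equal bins of their ranking by peak score (x axis, 1 is strongest), with the share of sites in each class on the y axis (%). Common sites fall from 73.1% to 39.5% of RCC4 sites and from 43.6% to 4.60% of HKC8 sites between the strongest and the weakest bin.

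Over the 702 common sites, mean percentile in RCC4 and in HKC8 had a Spearman coefficient of 0.45 across sites, which are not independent replicates. Replicates of the same line had 0.77 in RCC4 over these 702 sites and 0.84 in HKC8 over 700 of them. Among 700 common sites with a peak of their own in all 4 lists, 214 had both RCC4 percentiles above both HKC8 percentiles and 207 the reverse. Percentiles were taken within lists of 2990 to 6749 peaks, so the same binding can have a different percentile in each line, and these counts describe rank only.

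The best-ranked common sites lay far from promoters in most cases. The site with the best mean percentile, chr5:90575650-90578055, is intergenic and 102.3 kb from the transcription start site (TSS) of ARRDC3, an arrestin-domain gene, and scored 3100 in each of the 4 lists. That value recurs among the strongest peaks, and 6 and 1 RCC4 peaks and 10 and 36 HKC8 peaks lay at or above it. The highest score was 3200, in HKC8 WT replicate 1. SUSD1 (chr9:114803457-114804876, 101 kb from the TSS, centre in a UTR) scored 3100 and 1718 in RCC4 and 3100 in both HKC8 lists. An intronic site of FRMD4A (chr10:14437950-14439961, 65.1 kb) reached 3173 and 1626 in RCC4 and 3100 in both HKC8 lists. The site 163 kb from COL4A1, a basement membrane collagen chain (chr13:110657549-110659602), scored 3100 and 2177 in RCC4 and 2509 and 3100 in HKC8. These 3 sites had peaks in both RCC4 libraries of HIF-1β and of HIF-1α. No HRE core lay within 100 bp of their centre, which is the midpoint of intervals 1420, 2012 and 2054 bp wide. Cores elsewhere in these intervals were not counted.

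BHLHE40, a transcriptional repressor of the circadian system, was the only gene of the best 10 with the site at its promoter. Its site, 0.225 kb from the TSS, scored 2827 and 1893 in RCC4 and 3100 and 2517 in HKC8. The remaining 5 of the best 10 lay 28.3 kb from PDE10A (chr6:166103871-166106233), 606 kb from CITED2, a competitor of HIF for its coactivators (chr6:140301362-140302370), 106 kb from AC092291.2 (chr16:14457312-14460042), 168 kb from AUH (chr9:93954972-93956947) and 72.5 kb from TBL1XR1 (chr3:177017583-177018897). Their scores ranged from 996 to 3100 in RCC4 and from 1597 to 3100 in HKC8. All 10 also had a HIF-2α peak in both HKC8 HIF-1α KO libraries, and in 4 to 8 of the 8 HKC8 HIF-2α libraries of a separate severity and duration experiment (6, 16 or 48 h in 0.5% oxygen, or 6 h in 3%).

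Some common sites had very different percentiles in the lists of the lines. Beside AGA (chr4:180117243-180118278, 1754 kb from the TSS), scores were 709 and 509 in RCC4 and 51.8 and 91.7 in HKC8. RBPJ, which encodes the DNA-binding effector of Notch signalling, had a site 0.217 kb from a TSS (chr4:26320297-26321786) that scored 549 and 247 in RCC4 and 62.3 and 65.9 in HKC8. An intronic site of BICD1 (chr12:32462862-32464038) had 620 and 581 against 66.1 and 72.9, and one 67.2 kb from SP3, a GC-box factor (chr2:174896422-174898109), 502 and 306 against 60.9 and 76.0. At each of these 4 sites both RCC4 percentiles lay above both HKC8 percentiles, which is part of the rule by which they were picked.

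In the opposite direction, the site 11.01 kb from FHAD1 (chr1:15682498-15683369) scored 61.4 and 60.2 in RCC4 and 1932 and 2986 in HKC8. It had a peak in 40 of the 50 lists of the series. The site 24.8 kb from ENO1, a glycolytic enolase (chr1:8963711-8964385), had 52.3 and 61.5 in RCC4 and 478 and 672 in HKC8. SPTBN1, a spectrin (chr2:54760013-54760849), had 55.4 and 53.8 against 420 and 667, and ZNF326 (chr1:90418615-90419464) 68.4 and 52.3 against 354 and 497. None of these 4 had a HIF-1β or HIF-1α peak in RCC4.

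Among RCC4-only sites the best ranked lay at chr11:69233952-69236089, where the nearest protein-coding TSS is that of MYEOV at 173 kb. CCND1, the cyclin D1 gene, which VHL-defective renal carcinoma cells express strongly, starts 221 kb from its centre. It scored 2098 and 1293 in RCC4 and had no HKC8 WT HIF-2α peak, although 1 of the 2 HIF-1α KO libraries and 1 of the 8 severity and duration libraries had one. HIF-1β was present there in both RCC4 libraries and HIF-1α in 1. No core lay within 100 bp of the centre of this 2138 bp interval, and cores elsewhere in it were not counted.

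The site shown above for IRS2, an adaptor of insulin signalling (chr13:110492090-110493694, 54.0 kb), scored 1445 and 953. An intronic site of TRAPPC9 (chr8:141146866-141148216) scored 1290 and 1193, and one of HS1BP3 (chr2:20794773-20796316) 1335 and 916. SCAF11 (chr12:46494735-46496365, 111 kb) had 1215 and 824, and LYZL1 (chr10:29648957-29650050, 71.5 kb) 1318 and 773. TRIB3, a stress-induced pseudokinase, carried a site 9.73 kb into the gene (chr20:370838-372500) with 1140 and 821. The other sites of the best 10 lay near UBA6 (chr4:68592430-68593621, 1128 and 821), CSNK1G3 (chr5:123201107-123202065, 971 and 909) and TNS1, a focal adhesion protein (chr2:218766403-218769067, 969 and 751). These 10 sites had a peak in 5 to 16 of the 50 lists, and each had a peak in at least 1 RCC4 library of HIF-1β and of HIF-1α.

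Within 1 kb of a TSS, the best RCC4-only sites after TNS1 (0.802 kb) were at TMCC1 (chr3:129375157-129376364, 0.191 kb, 780 and 550) and at BCL6, a transcriptional repressor (chr3:187453195-187454951, 0.285 kb, 1076 and 352). The BCL6 site was in 6 lists, which are the 6 of RCC4. TMCC1 and TNS1 also had HIF-1β in both HepG2 libraries, a liver line kept in 0.5% oxygen for 16 h.

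HKC8-only sites reached the top of the HKC8 ranking. The site 106 kb from SLC45A1 (chr1:8270972-8273343) scored 2997 and 3165 and had a HIF-2α peak in 7 of the 8 severity and duration libraries. EFNA1, an ephrin ligand (chr1:155096550-155100874, 1.64 kb from the TSS), scored 3179 and 3100, but none of those 8 libraries had a peak there. ADARB1, an RNA-editing deaminase (chr21:46469161-46472125, 23.9 kb), scored 3100 in both lists and was the only site of the best 10 without a HIF-2α peak in either HIF-1α KO library. ITPR1, a calcium release channel of the endoplasmic reticulum (chr3:4787478-4789063), scored 1826 and 3100.

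The other sites of the best 10 were near ADAMTS18 (chr16:77589375-77590940, 2563 and 3100), TTYH3 (chr7:2679275-2682174, 1907 and 3109), KCNS1 (chr20:43716142-43718508, 2441 and 2677), WDR72 (chr15:54122742-54124739, 1938 and 2642), ICOSLG (chr21:45626308-45629352, 1555 and 3100) and THBS2, a thrombospondin (chr6:169566686-169568788, 1444 and 2730). All 10 had HIF-1β and HIF-1α in both HKC8 WT replicates. KCNS1 and WDR72 had a HIF-2α peak in 8 of the 8 severity and duration libraries. At promoters, HKC8-only sites of high rank were at MACROD2 (chr20:15965930-15967084, 0.073 kb, 1140 and 951) and AK4P3 as the annotation names it (chr12:31803497-31804908, 0.79 kb, 595 and 778).

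Libraries that took no part in defining the classes were then examined. In the 8 HKC8 HIF-2α libraries of the severity and duration experiment, a mean of 25.8% ± 13.7 of common sites and 3.99% ± 2.76 of HKC8-only sites had a peak (SD, n = 8). Common sites were higher in 8 of 8 libraries, by 21.8 percentage points ± 11.1 (exact sign-flip permutation test, two-sided, p = 0.00781, the smallest it can give, adjusted p = 0.0938 over 12 tests). Common sites also ranked higher in HKC8 WT, with a median percentile of 83.5 against 53.6 for HKC8-only sites. The part of rank in this difference was not tested. The lowest values were 3.84% of common and 0.442% of HKC8-only sites, in replicate 2 of 48 h, whose list held 237 peaks. The highest were 46.4% and 9.08%, in replicate 2 of 0.5% oxygen for 16 h (1051 peaks). Replicate 1 of that condition (1198 peaks) had 30.7% and 3.70%. It is the oxygen level and duration of the HKC8 WT libraries that define the classes, so most HKC8-only sites were not called when the condition was repeated. In any of the 8 libraries, 60.4% of common and 15.1% of HKC8-only sites had a peak. The adjusted p was 0.0469 by the same exact test with lists of equal length, with the upper 50% of each list and without either RCC4 replicate or HKC8 WT replicate 1, settings in which the comparison of the line-only classes that follows also reached its smallest p.

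RCC4-only sites had a peak in 2.36% ± 1.37 (SD, n = 8) on average in those libraries, 1.63 percentage points below HKC8-only sites (6 of 8 libraries, exact sign-flip permutation p = 0.0312, adjusted p = 0.188). With windows of 200 bp the difference changed sign, to −1.16, and without HKC8 WT replicate 1 it was −2.36, a reversed difference that itself passed the threshold (adjusted p = 0.0469 by the same exact test). Without RCC4 replicate 1 it was 4.72, also with adjusted p = 0.0469 by that exact test, and without HKC8 WT replicate 2 it was 0.689, so its direction is not settled by these libraries. These lists held 237 to 1493 peaks each.

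Some RCC4-only sites had HIF peaks in other HKC8 libraries. In the HKC8 HIF-1α KO clone, 72 of the 365 RCC4-only sites (19.7%, 15.8% to 24.2%) had a HIF-2α peak in either library and 37 (10.1%) in both. Across the 10 other HKC8 HIF-2α lists, 278 (76.2%, 71.5% to 80.4%) had none, and 242 (66.3%, 61.2% to 71.1%) had no peak of any subunit in the 36 other HKC8 lists. Of the HKC8-only sites, 2329 of 2489 (93.6%, 92.5% to 94.5%) had no peak in any of the 4 other RCC4 lists. The number of lists behind these shares differs, 36 in HKC8 and 4 in RCC4, so they give no order.

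The knockout clones gave the following shares by class. HIF-2α was called at 93.0% and 94.3% of common sites in the 2 HIF-1α KO libraries, and at 64.4% and 71.1% of HKC8-only sites. HIF-1β peaks were at 95.5% and 98.6% of common sites in WT cells, 83.0% and 92.5% in HIF-1α KO and 65.9% and 60.9% in HIF-2α KO. At HKC8-only sites the shares were 82.5% and 91.6% in WT, 49.2% and 64.2% in HIF-1α KO and 27.4% and 21.8% in HIF-2α KO. In both classes the 2 HIF-2α KO libraries had the lowest shares, and their HIF-1β lists were also the shortest, with 2550 and 2085 peaks against 3387 and 5786 in HIF-1α KO and 6199 and 8279 in WT. HIF-1α in the HIF-2α KO clone was at 45.3% and 32.4% of common and at 9.88% and 4.94% of HKC8-only sites. Each KO line is a single clone, and these values were not tested.

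**Figure D2:**
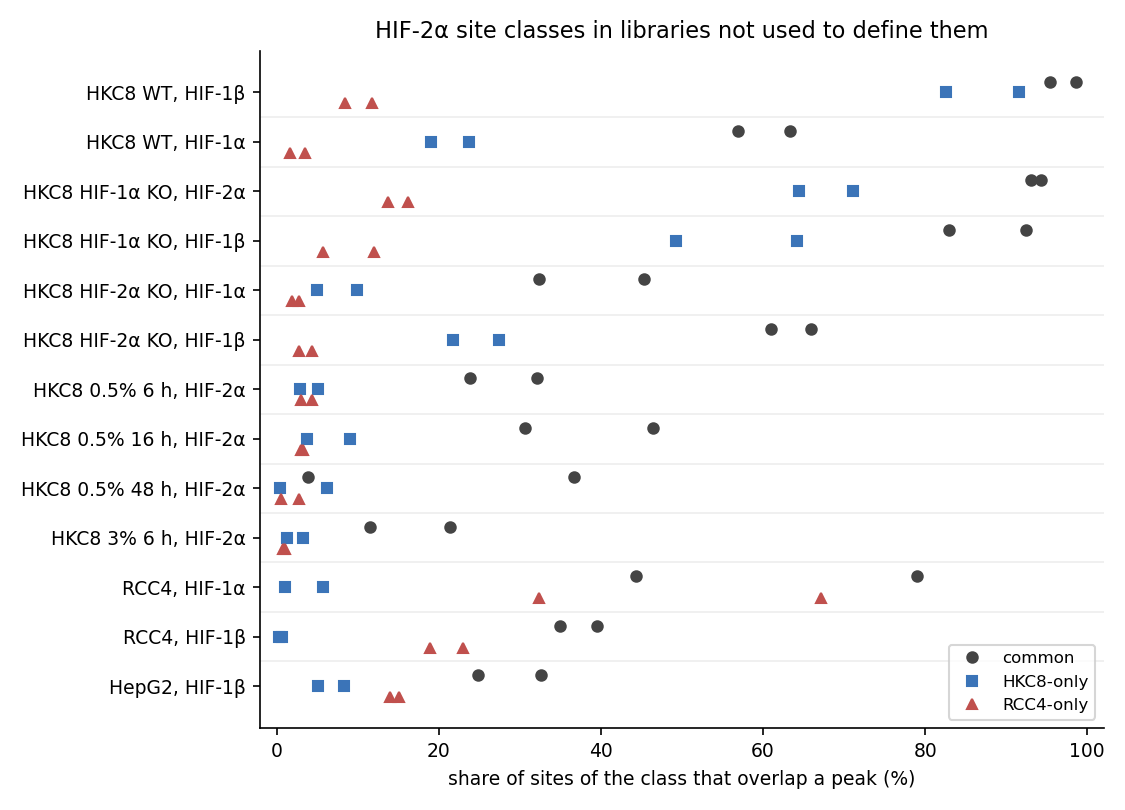
Share of common, HKC8-only and RCC4-only HIF-2α sites (x axis, %) that overlap a peak in libraries not used to define the classes (rows, 2 libraries each, 1 point a library). Replicate by replicate, common sites lie to the right of both line-only classes in each row, HKC8-only sites reach 91.6% for HKC8 WT HIF-1β, and RCC4-only sites reach 67.1% for RCC4 HIF-1α.

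HIF-1α, the other isoform, was frequent at RCC4-only sites. RCC4 HIF-1α peaks were at 67.1% of RCC4-only sites in replicate 1 (5680 peaks) and 32.3% in replicate 2 (2120 peaks), and at 79.0% and 44.3% of common sites. In HKC8 WT, HIF-1α was at 23.7% and 19.1% of HKC8-only sites and at 63.4% and 57.0% of common sites, from lists of 1913 and 1535 peaks. Per HIF-2α library, with HIF-1α counted in either replicate, the share was 80.9% and 80.8% for common against 67.8% and 67.6% for RCC4-only peaks, and 67.6% and 68.2% for common against 28.4% and 28.5% for HKC8-only peaks. Common peaks were higher in 4 of 4 libraries, by 26.3 percentage points ± 15.2 (SD, n = 4; exact sign-flip permutation test, two-sided, p = 0.13, the smallest possible with 4 libraries, adjusted p = 0.214). Without RCC4 replicate 1 it was 42.7, and among peaks scoring at least 100 it was 19.4. The common sites are the same in all 4 libraries, and the line-only sites the same in both replicates of a line. The 4 differences here, and in the like comparisons below, are therefore not independent replicates.

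HIF-1β followed the same order within each line. A HIF-1β peak of RCC4 was present at 45.4% and 45.5% of common and 27.9% and 28.1% of RCC4-only peaks in the 2 RCC4 libraries. In HKC8 the values were 98.7% in both libraries for common and 94.1% in both for HKC8-only peaks. The mean difference over the 4 libraries was 11.05 percentage points ± 7.44 (higher in 4 of 4, exact sign-flip permutation p = 0.13, adjusted p = 0.214). Without HKC8 WT replicate 2 it was 17.3, and among peaks scoring at least 100 it was 8.10.

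Between the lines, HIF-1β was at 15.3% and 15.9% of all RCC4 HIF-2α peaks and at 88.0% and 87.2% of HKC8 peaks, with no overlap of the groups (exact permutation p = 0.333, adjusted p = 0.364). The RCC4 HIF-1β lists held 911 and 1305 peaks and the HKC8 lists 6199 and 8279, and the part of that gap in the result was not tested. The RCC4 HIF-1β libraries are labelled repeats 2 and 3, with inputs so labelled, and the HIF-2α libraries replicates 1 and 2. The labels do not say whether they share chromatin. From read signal, the paper describes HIF-1β above local background at all its RCC4 HIF-2α sites, so a site without a peak may still have signal. Along the RCC4 ranking, the share of sites with HIF-1β was 83.5% in the strongest bin, 53.7%, 26.0% and 16.9% in the next ones and 11.1% in the weakest. In the HKC8 ranking it was 99.7% and 86.2% in the strongest and weakest bin. In the strongest RCC4 bin, 86.0% of RCC4-only and 84.7% of common sites had HIF-1β, and in the third bin 18.9% and 30.2%.

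HepG2 gave a further point of comparison. HIF-1β of HepG2 was called at 32.7% and 24.9% of common sites, 15.1% and 13.97% of RCC4-only sites and 8.36% and 5.10% of HKC8-only sites. Both libraries gave the same order. Counting all 50 lists, including those that define the classes, the median site had a peak in 19 lists for common, 8 for HKC8-only and 4 for RCC4-only, and 56 common sites (7.98%) were in at least 40 lists. No RCC4-only and 1 HKC8-only site was. In the RCC4-only class, 81 sites (22.2%) were in the 2 RCC4 HIF-2α lists and no other, and 71 HKC8-only sites (2.85%) were in the HKC8 WT HIF-2α lists alone. As HKC8 has 36 other lists and RCC4 4, neither these shares nor the medians give an order of the line-only classes.

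Of the 3 classes, common sites were the closest to a TSS. Within 1 kb of a protein-coding TSS lay 81 of 702 common sites (11.5%, 9.27% to 14.1%), 27 of 364 RCC4-only sites on the main chromosomes (7.42%, 4.94% to 10.6%) and 100 of 2488 HKC8-only sites (4.02%, 3.28% to 4.87%). The 144 RCC4 sites in between had 15.3% (9.83% to 22.2%). The median distance was 27.3 kb for common, 39.8 kb for RCC4-only and 33.9 kb for HKC8-only sites. Beyond 100 kb lay 22.6%, 29.7% and 23.6%. Introns held the centre of 43.7% of common, 47.3% of RCC4-only and 47.5% of HKC8-only sites, and intergenic sequence 50.7%, 49.2% and 48.8%.

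Per library, 11.5% and 11.2% of common against 7.40% and 7.38% of RCC4-only peaks were within 1 kb in RCC4, and 10.6% and 11.03% of common against 3.96% and 3.90% of HKC8-only peaks in HKC8. The mean difference was 5.44 percentage points ± 1.71, with common peaks higher in 4 of 4 libraries (exact sign-flip permutation p = 0.13, adjusted p = 0.214). Without HKC8 WT replicate 1 it was 3.41. Over all peaks the lines overlapped, at 9.51% and 5.08% in RCC4 and 6.26% and 5.80% in HKC8 (difference 1.26 percentage points, exact permutation p = 1). That small difference turned negative, to −0.985, with a limit of 5 kb, to −0.176 with the TSS of all transcripts and to −0.952 without RCC4 replicate 1.

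**Figure D3:**
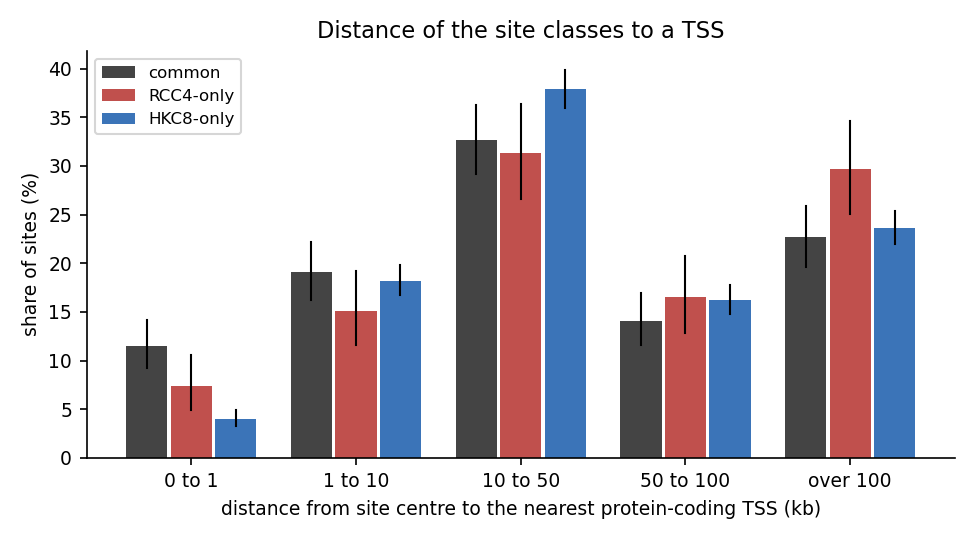
Share of common, RCC4-only and HKC8-only HIF-2α sites (y axis, %) by distance from the site centre to the nearest protein-coding TSS (x axis, kb), with vertical lines for 95% Clopper-Pearson intervals. The nearest bin holds 11.5% of common, 7.42% of RCC4-only and 4.02% of HKC8-only sites, and the farthest bin 22.6%, 29.7% and 23.6%.

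The HRE core was within 100 bp of the centre in 61.3% of common sites (57.5% to 64.9%), 59.3% of RCC4-only sites (54.1% to 64.4%) and 44.8% of HKC8-only sites (42.8% to 46.8%). In windows 2 kb to either side the shares were 22.1%, 19.5% and 20.2%. Taken over the HKC8 intervals, the common class had 57.1% (53.4% to 60.8%). ACGTG was in 48.9% of common, 45.6% of RCC4-only and 31.5% of HKC8-only sites, and GCGTG in 25.6%, 20.6% and 18.5%. At least 2 cores were present in 23.8%, 17.03% and 14.3%. Among RCC4 sites, those with a HIF-1β peak held the core in 67.2% of common and 68.6% of RCC4-only cases, and those without one in 56.3% and 55.7%. HKC8-only sites had it in 46.1% of 2347 with HIF-1β and in 22.0% of 141 without (15.5% to 29.7%). Within 1 kb of a TSS lay 19.4% of common and 17.6% of RCC4-only sites with HIF-1β, against 4.97% and 3.44% without.

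Within each library the same order was seen, with 59.6% and 63.0% of common against 58.6% and 62.0% of RCC4-only peaks in RCC4, and 62.2% and 55.6% of common against 48.0% and 43.6% of HKC8-only peaks in HKC8. The mean difference was 7.04 percentage points ± 7.07 (4 of 4 libraries, exact sign-flip permutation p = 0.13, adjusted p = 0.214), made up of under 1 point in each RCC4 library and of 14.2 and 12.01 points in the HKC8 libraries. It was 17.3 without RCC4 replicate 1 and 15.3 without RCC4 replicate 2. Among peaks scoring at least 100 it was 3.32 (exact sign-flip permutation p = 0.5). In the upper 50% of each list it was 3.68, and among sites with a HIF-1β peak 5.09 (p = 0.375 for each by the same exact test). Over all peaks, the core was in 42.9% and 36.3% in RCC4 and 49.4% and 43.1% in HKC8, ranges that nearly meet (exact permutation p = 0.333, adjusted p = 0.364). This order of the lines was reversed among peaks scoring at least 100, where RCC4 was higher by 9.19 percentage points.

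The AP-1 motif, TGACTCA or TGAGTCA, the target of FOS and JUN dimers, was in 20.4% of common, 20.3% of RCC4-only and 15.6% of HKC8-only sites, against 4.27%, 3.30% and 3.38% at 2 kb. Common peaks had it more often than line-only peaks in 4 of 4 libraries, by 3.43 percentage points ± 3.13 (exact sign-flip permutation p = 0.13, adjusted p = 0.214). That difference was 1.37 without HKC8 WT replicate 2, 7.19 and 7.59 without RCC4 replicate 1 and 2, and 0.506 among sites with a HIF-1β peak (exact p = 1). Over all peaks it was in 15.4% and 13.5% in RCC4 and in 17.5% and 18.5% in HKC8 (exact permutation p = 0.333, adjusted p = 0.364), and this too reversed among peaks scoring at least 100, to 2.36 points higher in RCC4. Split by both motifs, 32.5% of common, 34.3% of RCC4-only and 47.3% of HKC8-only sites held neither, while 14.1%, 14.01% and 7.68% held both.

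Other motifs were described in the same windows. CATTCC, the core bound by TEAD factors, was in 25.6% of HKC8-only sites (23.9% to 27.3%), 15.4% of RCC4-only sites (11.8% to 19.5%) and 22.5% of common sites (17.9% over the HKC8 intervals), against 10.95%, 12.9% and 11.04% at 2 kb. TGTGGT, found in RUNX sites, was in 24.7% of RCC4-only sites (20.4% to 29.5%), 16.4% of HKC8-only and 16.7% of common sites, against 14.97%, 15.01% and 14.5%. GGGCGG, the GC box, was in 11.4% of common, 7.97% of RCC4-only and 5.43% of HKC8-only sites. CACGTG, which contains the HRE core, was in 6.55%, 5.49% and 6.51%. The 6 remaining motifs searched, for CRE (TGACGTCA), ETS (CCGGAA), FOX (TGTTTAC), CEBP (TTGCGCAA or TTGCACAA), HNF1 and NFI, were each in at most 5.14% of any of the 3 classes. A match shows letters in a window and not binding of the factor.

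**Figure D4:**
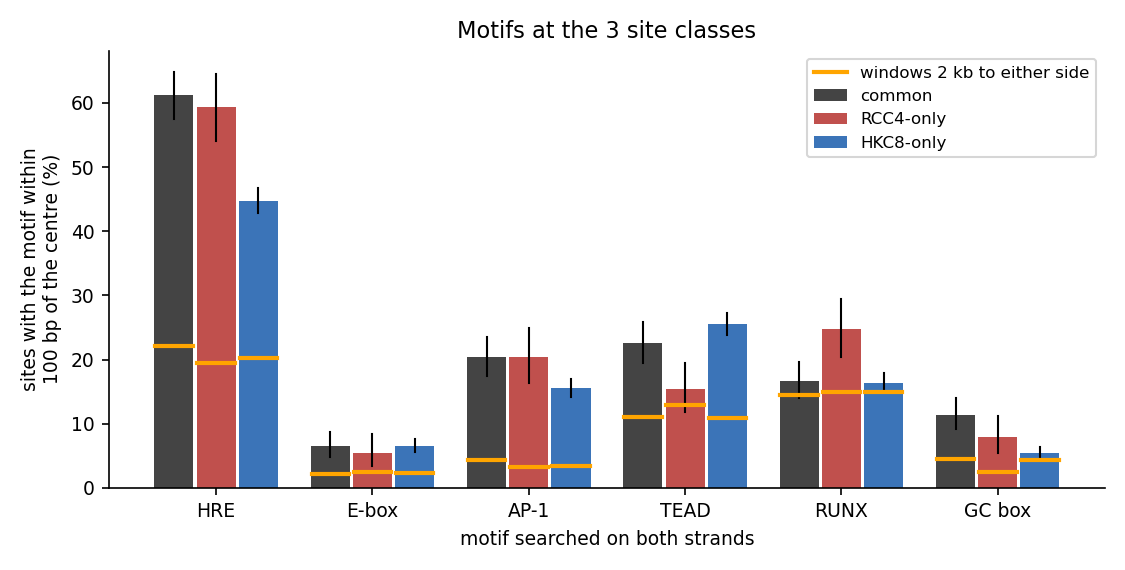
Share of common, RCC4-only and HKC8-only HIF-2α sites (y axis, %) with each motif within 100 bp of the centre, with vertical lines for 95% Clopper-Pearson intervals and orange lines for windows 2 kb to either side. The HRE core is in 61.3%, 59.3% and 44.8% of the 3 classes, against 22.1%, 19.5% and 20.2% in the distant windows.

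The classes were also set side by side at like rank, as a description. In the 5 rank bins of HKC8, from strongest to weakest, 54.5%, 56.0%, 62.6%, 67.3% and 54.3% of common sites held the core, against 46.4%, 48.2%, 45.5%, 43.2% and 42.6% of HKC8-only sites. In RCC4 the strongest bin had it in 72.1% of 43 RCC4-only and 62.7% of 177 common sites, the next bins in 71.7% and 62.4%, 68.9% and 60.4%, and 46.2% and 61.5%, and the weakest in 53.6% and 57.3%. RCC4-only sites thus lay above common sites in the first 3 bins and below them in the last 2. In HKC8, HKC8-only sites lay within 1 kb of a TSS in 2.92% to 4.72% of cases in each bin. Common sites did so in 7.53% to 16.4% of cases in the first 4 bins and in 2.86% in the weakest, which held 35 common sites. In RCC4 the order differed between bins. RCC4-only sites lay above common sites in the third bin, at 10.8% against 7.91%, and in the weakest, at 8.18% against 7.29%. In the remaining bins common sites lay above, at 11.3%, 15.03% and 14.5% against 9.3%, 6.52% and 3.3%. For HIF-1α in HKC8 the strongest bin had 88.6% of common and 81.8% of HKC8-only sites, and the weakest 34.3% and 9.46%. In RCC4 a HIF-1α peak was at 97.7% of common and 100% of RCC4-only sites in the strongest bin. The next bins had 90.2% and 87.0%, 80.6% and 75.7%, and 66.7% and 58.2%, and the weakest 50% in both classes.

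**Figure D5:**
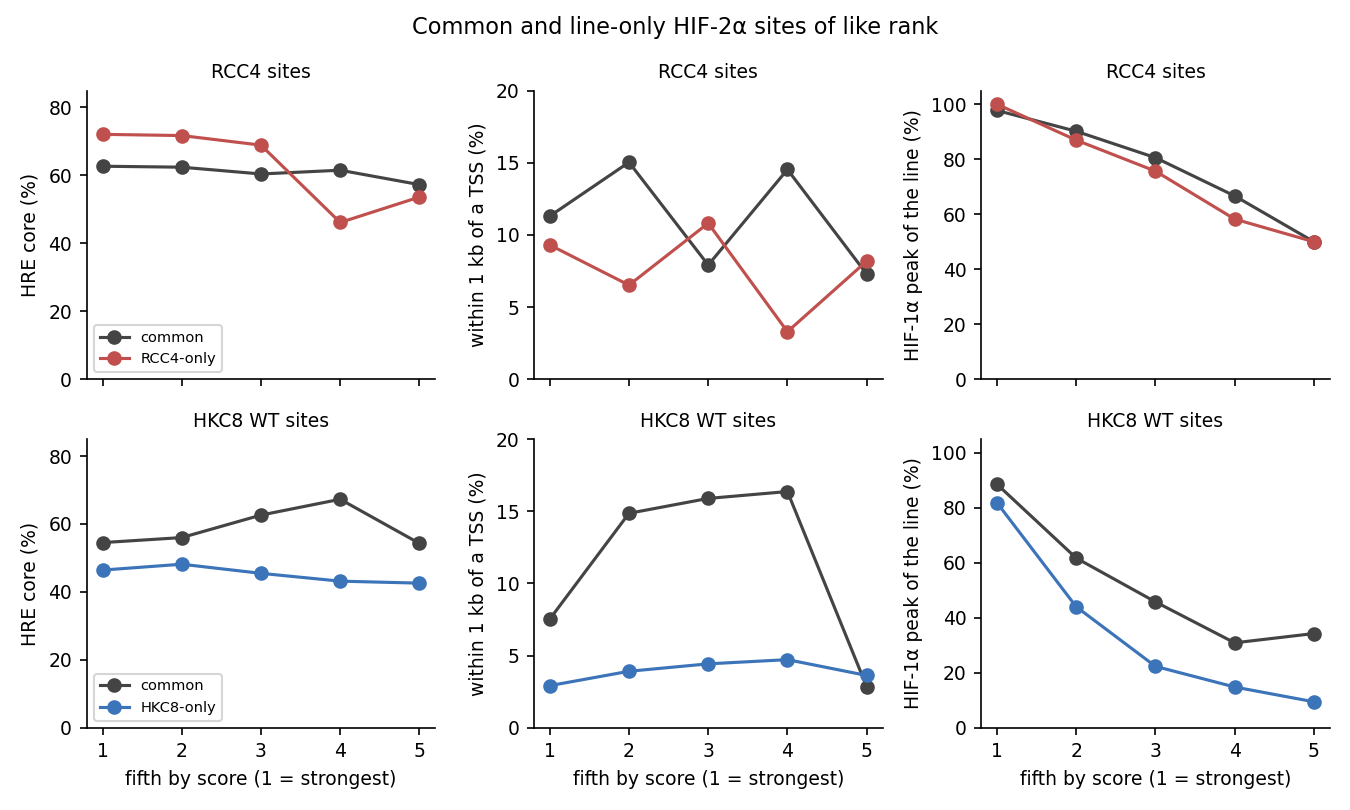
Common and line-only HIF-2α sites compared within 5 equal bins of the score ranking (x axis, 1 is strongest) in RCC4 (upper row) and HKC8 WT (lower row), as the share (y axes, %) with the HRE core, within 1 kb of a TSS and with a HIF-1α peak of the same line. In HKC8 the common sites lie above HKC8-only sites for the core in all 5 bins, and in RCC4 the RCC4-only sites lie above common sites in the strongest bin, at 72.1% against 62.7%.

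Sites were next assigned to the nearest protein-coding gene by TSS, within 100 kb. Each distance is to the nearest TSS of any transcript of that gene, so sites of the same gene can be measured from different TSS. Of 19794 protein-coding genes, 481 (2.43%) were nearest to a common site, 242 (1.22%) to an RCC4-only site, 1464 (7.4%) to an HKC8-only site and 2042 (10.3%) to an HKC8 site of any class. Of the 242 genes with an RCC4-only site, 76 (31.4%) also had an HKC8 site, 51 of them an HKC8-only site and 29 of the 242 a common one, while 166 (68.6%) had no HKC8 site. CYP1B1, a cytochrome P450 enzyme, had 2 RCC4-only and 2 HKC8-only sites and no common one. Within the common class BHLHE40, LOXL2 and SMAD3 had the most sites, 4 each, and within the HKC8-only class COLEC10 and MED30 had 6 each.

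List genes were then looked up. Of 161 genes on 13 lists, 47 (29.2%) had a common site, 21 of them within 1 kb of the TSS, 35 (21.7%) an HKC8-only and 8 (4.97%) an RCC4-only site, beside the 2.43%, 7.4% and 1.22% of all protein-coding genes. The lists group genes by function and include known HIF targets, so a share above that of all genes may follow in part from how they were chosen. Sites were counted for glycolysis and glucose uptake in 12 of 21 genes (common), 3 (HKC8-only) and 2 (RCC4-only), and for vascular and growth factors and receptors in 8 of 21, 8 and 0. For mitophagy and stress the numbers were 6 of 9, 4 and 1, for carbonic anhydrases and pH 3 of 7, 0 and 0, and for histone demethylases 2 of 10, 0 and 0. HIF subunits and oxygen sensing had 2 of 11, 2 and 1, cell cycle and kidney cancer loci 3 of 11, 2 and 1, and lipid droplets and lipid handling 2 of 11, 1 and 0. Collagen modification had 2 of 10, 2 and 0, integrins, laminins and matrix 2 of 15, 5 and 2, kidney lineage transcription factors 3 of 14, 4 and 0, the AP-1 family 2 of 11, 3 and 1, and circadian clock genes 1 of 13, 1 and 1.

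Several glycolytic genes had a common site at or near a TSS. LDHA, lactate dehydrogenase A (chr11:18415315-18416785), scored 1865 and 1318 in RCC4 and 684 and 355 in HKC8. PKM, pyruvate kinase, had sites 1.77 kb and 0.157 kb from different TSS of the gene. The first scored 1293 and 949 in RCC4 and 1160 and 1724 in HKC8. PFKFB4, a regulator of fructose bisphosphate (0.279 kb), had 853 and 312 against 567 and 838, GPI (0.08 kb) 657 and 532 against 837 and 164, and ALDOA (0.427 kb) 563 and 368 against 293 and 305. The scores of the lines overlapped at PFKFB4, GPI and the first PKM site, whereas both RCC4 scores were higher at LDHA and ALDOA. Scores grow with depth, so an order of the lines in score is not one in binding.

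Some glycolytic genes had sites of several classes. SLC2A1 (GLUT1) had a common site with its centre in an intron, 0.425 kb from a TSS (chr1:43405738-43411231). It scored 1312 and 195.5 in RCC4 and 848 and 1678 in HKC8. An RCC4-only site (chr1:43427483-43429682, 402 and 135) lay 4.04 kb from another TSS of the gene. PFKFB3 had 2 common sites and an RCC4-only site 55.5 kb from a TSS (73.5 and 58.8). PFKP, a phosphofructokinase, had a common site 2.76 kb from a TSS, and HKC8-only sites 19.7 kb and 13.5 kb from different TSS of the gene. HK2, hexokinase 2, had only a weak HKC8-only site (61.5 and 61.7).

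VEGFA, the endothelial growth factor, had a common site 0.543 kb from the TSS (chr6:43736309-43738503) with 1813 and 1043 in RCC4 and 155 and 505 in HKC8. TGFA, an EGF receptor ligand and known HIF-2α target of renal carcinoma, had one at 42.8 kb (chr2:70823098-70824726) with 2638 and 1763 against 693 and 1975. ADM, adrenomedullin, scored 2463 and 2182 against 1905 and 608 at a common site 2.58 kb from its TSS (chr11:10328629-10330382). An HKC8-only site 4.16 kb from the TSS (chr11:10330438-10331736) nearly adjoins the common one. EGFR had 2 common and 2 HKC8-only sites, and APLN (0.896 kb), VEGFC (1.52 kb), STC2 (10.9 kb) and CXCR4 (43.8 kb) had HKC8-only sites alone. Of these, APLN scored 70.7 and 523 and VEGFC 65.1 and 172, near the lower limit in 1 replicate.

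Oxygen-sensing genes had sites of each class. EGLN3, a prolyl hydroxylase that marks HIF-α, had common sites 12.3 kb and 84.5 kb from a TSS, the nearer scoring 485 and 503.9 in RCC4 and 660 and 1197 in HKC8. EPAS1, which encodes HIF-2α, had a common site 63.5 kb away (149 and 320 against 136 and 277). HIF3A had an RCC4-only site 25.3 kb from its TSS (chr19:46774021-46775946, 350 and 94.3), and ARNT2 a weak HKC8-only site (86.3 and 56.4). CA9 (0.02 kb; 382 and 178 in RCC4, 251 and 922 in HKC8), a carbonic anhydrase widely used as a marker of VHL loss, and KDM3A, a histone demethylase (0.216 kb; 920 and 457, 948 and 1324), had common promoter sites.

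The mitophagy and stress list held genes with both common and HKC8-only sites. NDRG1, a hypoxia-induced growth regulator, had 2 common sites, of which the stronger (73.6 kb from the TSS, 1979 and 843 in RCC4, 1470.5 and 2205 in HKC8) was in 50 of the 50 lists, and 3 HKC8-only sites. DDIT4, an inhibitor of mTORC1, had common sites 13.1 kb and 24.3 kb away and an HKC8-only site 0.572 kb from its TSS with 69.9 and 51.2. On the lipid list no gene combined the classes. PLIN2, which coats lipid droplets, had a common site 13.2 kb away (1637 and 828, 832 and 1267), and HILPDA, an inhibitor of lipolysis, one at 0.4 kb (540.0 and 541, 409 and 141), whereas CD36, a fatty acid carrier, had an HKC8-only site (273 and 438). PLOD2, a collagen lysyl hydroxylase, had a common site at its TSS (468 and 281, 226 and 828) and 2 HKC8-only sites.

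BHLHE41, a paralogue of BHLHE40 and a gene at a kidney cancer risk locus, had an RCC4-only site 0.76 kb from its TSS (chr12:26277382-26280080) with scores of 436 and 148. It was the only RCC4-only site within 1 kb of a TSS on the lists. SCARB1, a lipoprotein receptor at another such locus, had a common site 20.6 kb away with 273 and 251 in RCC4 and 2156 and 2895 in HKC8, and an HKC8-only site at 86.7 kb. The other list genes with an RCC4-only site were MXI1 (3.83 kb, 95.3 and 57.7), ITGB6 (14.4 kb, 61.6 and 59.9), LAMA3 (7.73 kb, 72.6 and 86.3) and JUN (64.9 kb, 57.3 and 52.0), none of which scored above 95.3 in either replicate.

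Adhesion and lineage genes had mostly common and HKC8-only sites. ITGA5, an integrin chain, had an HKC8-only site 13.4 kb from its TSS (chr12:54825599-54827261) with 1149 and 2181, the highest scoring HKC8-only site on the lists. FN1, fibronectin, had 2 HKC8-only sites (80.2 and 161, 211 and 167). FOS, an AP-1 subunit, had 2 (299.6 and 1231, 381 and 412), and JUN 2 common sites beside its weak RCC4-only one. PAX8, a renal lineage factor, had a common site 0.496 kb from a TSS (334 and 276 in RCC4, 307 and 634 in HKC8) and 2 HKC8-only sites. TFAP2A and PAX2 had HKC8-only sites alone.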

How the data were processed

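The authors trimmed reads with Trim Galore 0.3.3, aligned them to GRCh37 with BWA 0.7.5a-r405, filtered with SAMtools 0.1.19 and bedtools 2.17.0, marked duplicates with Picard 1.106 and called peaks per library with MACS against a control (version not given in the sources used here). The deposited lists give position and a score, read as −10 log10 of the peak's p-value, with a lowest value of 50. They hold no read depth. Every deposited peak was used, without the second caller and background filter of the study.

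Overlap was at least 1 bp. TSS came from 89204 protein-coding transcripts of GENCODE 44 on GRCh37, and motifs were searched on both strands within 100 bp of the centre. The centre is the midpoint of the peak or site, not a summit. Peaks off the main chromosomes were left out of TSS and motif results. Shares have 95% Clopper-Pearson intervals. The 12 tests, all exact permutation tests over libraries, shared a single Benjamini-Hochberg adjustment, and the functions were tested on simulated data (Python 3.11.15, scipy 1.17.1, numpy 2.4.6, pysam 0.24.0). No pair of lists had identical intervals.

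Named sites were the 10 best-ranked of each class, the 4 common sites with the largest rank difference in each direction, the 3 best line-only sites within 1 kb of a TSS, and sites of list genes, of which some are not reported here. Sites, lists and rules were chosen with earlier results of these data known. Alternatives were 50% overlap, 200 bp windows, scores of at least 100, the upper 50% and equal length of lists, a TSS within 5 kb or of all 254376 transcripts, motif matches anywhere in a peak, HIF-1β or HIF-1α called in each replicate, restriction to sites with a HIF-1β peak, the replicate block and leaving out each library.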

Additional observations from a re-analysis of the deposited data

How the results depend on the processing

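Of 168 alternative values, 141 kept their direction and call, 9 changed direction, 9 site counts moved by over 1.5 times and 9 passed the threshold with the direction kept. Of those that changed direction, HKC8-only minus RCC4-only without HKC8 WT replicate 1 also passed it (adjusted p = 0.0469 by exact permutation). Comparisons of 2 libraries against 2, or over 4 libraries, could not pass the threshold in any setting. For these only the direction could change, so a kept call says nothing. Site counts among the 141 have no call and moved by at most 1.5 times. With scores of at least 100, the RCC4 minus HKC8 difference was 9.19 percentage points for the HRE core and 2.36 for AP-1, and 399 common, 192 RCC4-only and 1423 HKC8-only sites were left. With the upper 50% of each list those differences were 1.14 and 1.31, HKC8-only sites numbered 1203, and the severity and duration libraries gave 23.2 (common minus HKC8-only) and 4.47 (HKC8-only minus RCC4-only), each with adjusted p = 0.0469 by exact permutation. Lists of equal length gave 22.0 and 4.04 and 1291 HKC8-only sites. Windows of 200 bp gave −1.16 for HKC8-only minus RCC4-only. The promoter-proximal difference between lines was −0.985 within 5 kb and −0.176 with all transcripts. Leaving out each library in turn (the 4 that define the sites, and for the severity and duration results also each of those 8), the promoter-proximal difference ranged from −0.952 (without RCC4 replicate 1) to 3.48, common minus HKC8-only from 15.3 to 24.5 and HKC8-only minus RCC4-only from −2.36 (without HKC8 WT replicate 1) to 4.72, while common sites numbered 738 to 1255, RCC4-only sites 402 to 2640 and HKC8-only sites 2561 to 5052. Over the same 4 omissions, common minus line-only ranged from 3.41 to 6.01 for promoters, 5.55 to 17.3 for the core, 1.37 to 7.59 for AP-1, 10.6 to 17.3 for HIF-1β and 21.8 to 42.7 for HIF-1α, and RCC4 minus HKC8 for the core from −9.97 to −3.37. The replicate block left each difference between lines as it was (−1989.5 peaks, 1.26, −6.67, −3.56 and −72.0 percentage points), with a smallest exact permutation p of 0.5, and the numbers are only labels that the lines share. Read depth is unknown, so how far it limits the calling of weak sites was not tested. RCC4-only sites numbered 2016 without RCC4 replicate 1 and 2640 without replicate 2.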

Other observations

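The densest 2 Mb of each class was looked for after the values were seen, without an expected count to set beside it. For HKC8-only sites it was chr8:118454204-120451921, with 34 HKC8-only sites, no common and no RCC4-only site, near MED30, SAMD12, TNFRSF11B, COLEC10, EXT1, CCN3 and MAL2. HKC8 lists had 76 and 69 peaks there and RCC4 lists 8 and 3. Only 8.82% of the 34 sites held the core, against 44.8% of the class, while 88.2% had a HIF-1β peak. For RCC4-only sites it was chr8:128882610-130723566, with 6 RCC4-only sites near MYC and GSDMC, 1 HKC8-only site and no common one. Of the 6 sites, 16.7% held the core and none had HIF-1β. RCC4 lists had 10 and 8 peaks there and HKC8 lists 2 and 4. The densest 2 Mb of common sites, chr8:21494571-23399833, held 9 common and 6 HKC8-only sites. Of the 9 common sites, 4 were near LOXL2, a collagen cross-linking enzyme. Copy number of the lines was not analysed here, and its part in these counts was not tested.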
